A study of Glycine max with 6 samples.

Results

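BGI_novel gene models are rows of the soybean expression table whose identifier begins with BGI_novel in place of an NCBI gene number. They were chosen by that prefix alone, and there were 2852 of them among 41759 rows, or 6.83%. Several rows can share the same chromosome, start and end, and after identical spans were merged the models stood at 2516 loci. The other 38907 rows carry an NCBI gene number and are called numbered genes here.

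Expression was measured by RNA sequencing in leaves of soybean (Glycine max) of the genotypes HN44 and SN14, with 3 libraries each. The plants grew in a field under natural conditions, and the comparison is one of genotypes of unlike water use efficiency. Which of them uses water more efficiently was not given, and neither was the number of plants behind the libraries. The p-values below therefore rest on the spread between libraries, which may be technical. The labelled tissue was checked against 10 leaf genes such as RBCS1, a small subunit gene of the carbon-fixing enzyme Rubisco. Their summed level was 46957.9 to 68199.3 FPKM in HN44 and 73711.5 to 86524.3 FPKM in SN14, and the seed storage protein gene GY3 did not exceed 0.07 FPKM in any library. FPKM is a fragment count scaled for transcript length and library size, so levels of different rows can be set side by side.

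Gene models of this kind are built when aligned reads are assembled into transcripts and some transcripts match no gene of the annotation used. They can hold protein-coding genes that the annotation missed, long non-coding RNAs, antisense RNAs, transposon transcripts, or unannotated ends of neighbouring genes. A plant line can also carry or express sequences that the reference line lacks or keeps silent. The files give no sequence, coding potential or function for the models, and none is assigned here. Positions are those of the authors' table, whose genome build was not stated.

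Some libraries stood apart. Among models averaging 5 FPKM or more, 85 showed a change of over 2-fold from HN44-1 to HN44-2, and in 81 of these, 95.3%, the HN44-3 value fell inside that interval. Among numbered genes the same share was 99.6%, while an SN14 library fell between its other libraries in 34.3% to 81.6% of such models. HN44-3 thus added little spread of its own to HN44, and the comparisons between genotypes are given with and without it. Among nuclear models with a mean of at least 1 FPKM, 29.9% reached their highest level in HN44-1 and 28.7% in SN14-3. Among numbered genes these shares were 41.4% and 13.2%.

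The models were spread over the whole genome. On the 20 chromosomes lay 2805 models, between 103 on chromosome 16 and 200 on chromosome 2. For every 100 numbered genes of a chromosome there were 5.68 models on chromosome 8 and 9.08 on chromosome 2, with a median of 7.26 over the chromosomes. A further 23 models lay on 13 unplaced scaffolds. The mitochondrial sequence held 13 models and the plastid sequence 11, although the table had 0 numbered genes on either.

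**Figure D1:**
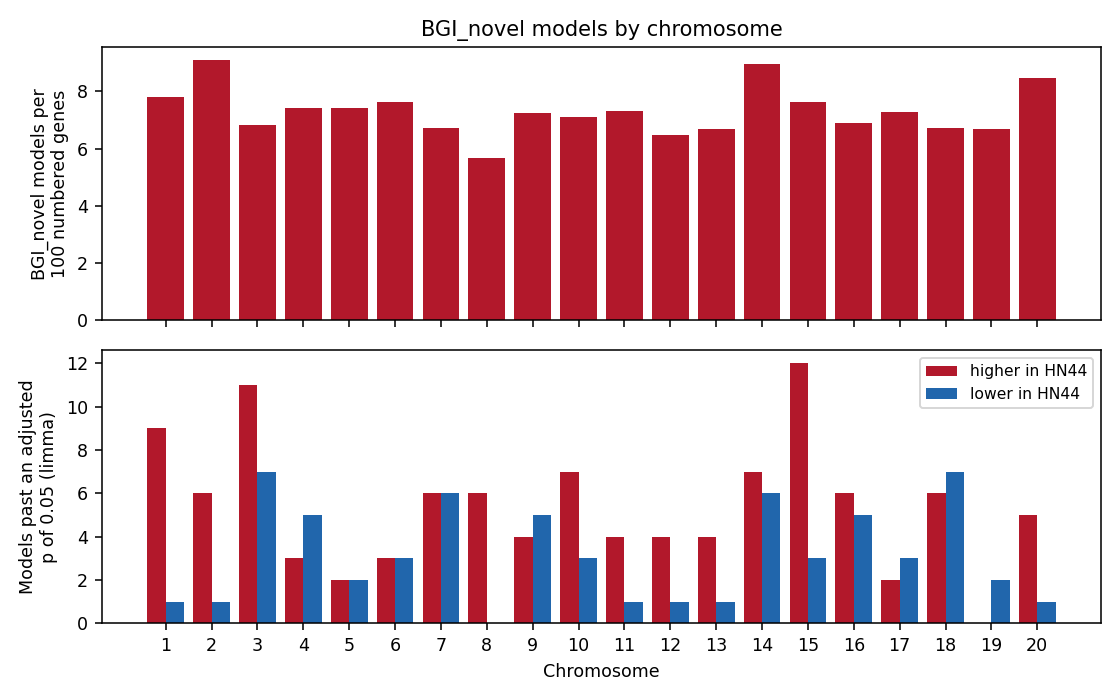
The upper bars give BGI_novel models per 100 numbered genes on each of the 20 chromosomes. The lower bars give the number of models past an adjusted p of 0.05 in limma with 6 libraries, higher in HN44 (left bar) or lower in HN44 (right bar). Density stayed between 5.68 and 9.08 models per 100 numbered genes. Calls ran from 2 of 72 tested models on chromosome 19 (2.78%) to 18 of 71 on chromosome 3 (25.4%). In the whole fit 9.45% of tested models and 3.78% of all rows were called. Overlapping models of the same place are counted separately, and differences between chromosomes were not tested.

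The span of a model, introns included, had a median of 3493.5 bases, with quartiles of 1983.75 and 5412.25 bases. Numbered genes had a median span of 3702 bases. Very long spans were rarer among the models: 22 exceeded 20000 bases, against 747 numbered genes, and 5 exceeded 50000 bases, against 129. Spans of at most 1000 bases made up 9.89% of the models and 6.85% of numbered genes. The plus strand held 1347 models and the minus strand 1311. The strand of the remaining 194 models, 6.80%, was undetermined, which was the case for no numbered gene. These strandless models were short, with a median span of 951 bases.

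Many models overlapped or shared a span with another model. In all, 599 models shared their exact span with at least 1 other model, at 263 shared spans. Another count, of models that overlapped a model of a different span, gave 1334. Chained by overlap on 1 strand, the 2852 models fell into 1876 places, of which 543 held more than 1 model and the fullest held 12. The span with most rows, bases 10709080 to 10716302 of chromosome 6 on the minus strand, carried 7 models, BGI_novel_G000808 to BGI_novel_G000814. The most abundant of them, BGI_novel_G000814, had 2.82, 2.94 and 2.95 FPKM in HN44 and 2.01, 3.86 and 2.58 FPKM in SN14. BGI_novel_G000811, with the same span, was listed at 0, 1.96 and 0 FPKM in HN44 and at 0, 1.26 and 0 FPKM in SN14. The levels of both models overlapped between the genotypes. How reads were divided among models with shared or overlapping spans is not given, so the level of a single model at such a place is uncertain.

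The models lay mostly outside the numbered genes. No overlap with a numbered gene was found for 2737 models, 96.0%. The other 115 comprised 93 on the same strand as the gene they overlapped, 18 on the opposite strand and 4 of undetermined strand, and 83 of the 93 lay wholly inside the gene's span. Only 61 numbered genes were overlapped at all. For the 2706 models without overlap that shared a chromosome or scaffold with a numbered gene, the nearest one was a median of 3242 bases away. It was within 1000 bases for 491 models, 18.1%, and over 50000 bases away for 95.

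The models were expressed at lower levels than the numbered genes in every library. Their median level was 1.39, 1.27 and 1.37 FPKM in HN44 and 1.15, 1.13 and 1.5 FPKM in SN14. Numbered genes had medians of 3.13, 2.67 and 3.00 FPKM in HN44 and 2.82, 2.54 and 2.38 FPKM in SN14. On the log2(FPKM + 1) scale the median of the models was lower by 0.435 to 0.829 within a library, with a mean difference of -0.71 ± 0.14 (SD, n = 6 libraries). An exact two-sided sign-flip permutation test over the libraries gave p = 0.0312, the smallest p that 6 libraries allow. The difference was smallest in SN14-3.

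The distribution of the models was narrower rather than merely shifted. The share reaching 1 FPKM was 62.7%, 59.5% and 62.5% of models in HN44 and 54.6%, 54.9% and 63.2% in SN14, against 62.3% to 64.5% of numbered genes over the 6 libraries. The numbered genes stood at 64.4% in SN14-1 and 63.3% in SN14-2, above the models, and in the other libraries the shares were closer. At 5 FPKM the shares were further apart, with 12.6% to 16.1% of models and 35.6% to 41.0% of numbered genes at or above that level. Between 13 and 17 models per library reached 100 FPKM. None of the 2852 models was at 0 in all 6 libraries, but neither was any of the 38907 numbered genes. Together the models took 1.84%, 1.76% and 1.81% of the FPKM total in HN44 and 1.69%, 1.56% and 1.85% in SN14.

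**Figure D2:**
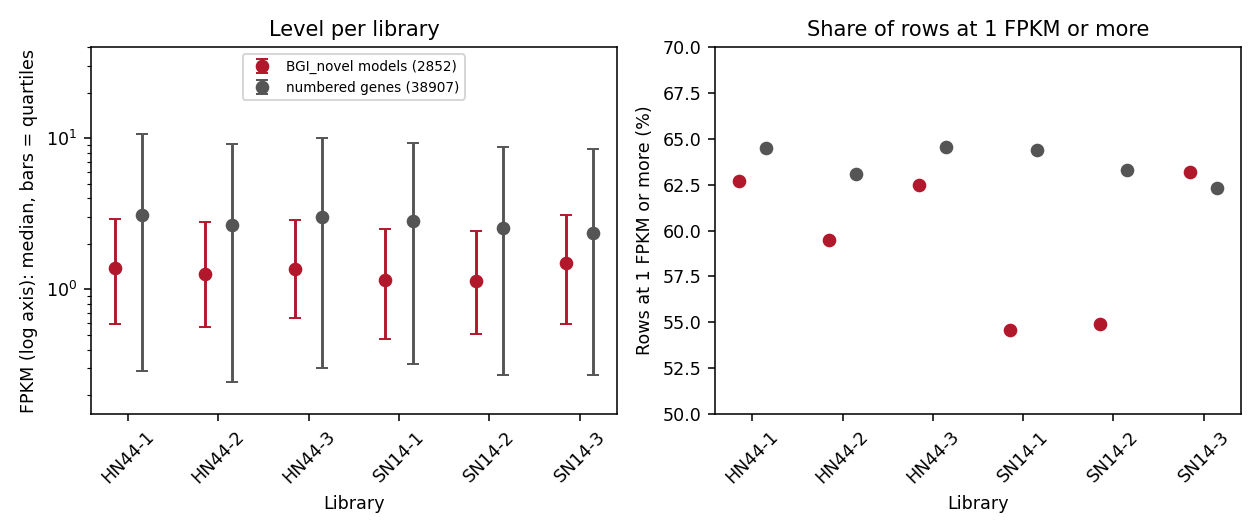
The left panel shows the median FPKM (log axis; bars span the quartiles) of the 2852 BGI_novel models and the 38907 numbered genes in each library, and the right panel the share of rows at 1 FPKM or more. The models have lower medians and narrower quartiles in all 6 libraries, and fewest models reach 1 FPKM in SN14-1 and SN14-2, at 54.6% and 54.9%.

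For the models as a group no difference in amount between the genotypes was detected. The share of models at 1 FPKM or more was 61.5 ± 1.8% in HN44 and 57.6 ± 4.88% in SN14 (SD, n = 3 each), with an exact two-sided permutation p of 0.4. The share of the FPKM total was 1.80 ± 0.0428% in HN44 and 1.70 ± 0.146% in SN14 (SD, n = 3 each), again with an exact two-sided permutation p of 0.4. With 3 libraries against 3 such a test cannot go below 0.1. Without the 10 most abundant rows of the table the sign of the second difference turned, with 2.11% in HN44 and 2.12% in SN14. Without HN44-3 the differences changed little, to 3.53 and 0.101 percentage points from 4.0 and 0.103 with 6 libraries. Without SN14-3 they were 6.81 and 0.179 points, each with an exact two-sided permutation p of 0.1, the smallest such a test can give. Without SN14-2 the difference in the FPKM total was 0.0335 points (exact permutation p = 0.7), and that in the share at 1 FPKM without SN14-1 was 2.5 points (exact permutation p = 0.7).

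Ranks of rows agreed less between libraries for the models than for numbered genes, while absolute differences were closer. Among tested rows, the median absolute log2 difference within a genotype was 0.211 to 0.469 for models and 0.174 to 0.387 for numbered genes. Between genotypes it was 0.379 to 0.622 and 0.29 to 0.56. How far the narrower distribution of the models lowers their rank correlation was not tested. Across the 2852 models, the Spearman correlation of levels was 0.65 to 0.885 between libraries of a genotype and 0.416 to 0.622 between libraries of different genotypes. Across the 38907 numbered genes it was 0.939 to 0.981 within a genotype and 0.892 to 0.952 between genotypes. These are descriptions across rows, which share libraries and depth and are not independent. With a floor of 5 FPKM on the mean, 429 models gave 0.675 to 0.933 within and 0.339 to 0.663 between genotypes, and 15375 numbered genes gave 0.811 to 0.954 within and 0.655 to 0.842 between.

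For the comparison of single rows, limma was fitted to log2(FPKM + 1) of every row that reached 1 FPKM in 3 or more libraries, and a row was called at a Benjamini-Hochberg adjusted p of 0.05. Of the 2852 models 1820 passed this filter and 1032 did not. Among the passing models, 133 passed through the HN44 libraries alone and 77 through the SN14 libraries alone, so counts over the passing models lean toward rows that differ. These 210 were 11.5% of the passing models, while 457 of 25320 passing numbered genes, 1.80%, passed in this way. The 1820 models stood at 1655 loci. Of them 172 were called, 108 higher and 64 lower in HN44, or 9.45% of those that passed. Over all 27140 rows of the fit 3.78% were called, 2.33% higher and 1.44% lower in HN44, and among numbered genes alone 3.37%. After median-of-ratios scaling, which moved the median fold change of all rows from 0.17 to 0.02 on the log2 scale, 94 models were called higher and 64 lower, against 458 and 504 over all rows. Counted as loci, 157 were called, 96 higher, 60 lower and 1 in both directions.

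Without HN44-3, on the same rows, 60 models were called, 44 higher and 16 lower in HN44, or 3.30%. The background of that fit was 0.553% of all rows, 0.387% higher and 0.166% lower, and 0.355% of numbered genes were called. All 60 were among the 172. When the filter was also applied again to the 5 libraries left, 4 of 1580 models were called, 0.253%, all lower in HN44. The background of that fit was 15 of 26277 rows, 0.0571%, and 0.0445% of numbered genes were called. Applying the filter again removes models expressed in HN44 alone, since 2 HN44 libraries cannot give the 3 values of at least 1 FPKM that the filter asks for. Models that stayed in the fit lost calls too, such as BGI_novel_G000440 (limma adjusted p = 0.0217 before and 0.0588 after). With no filter, 188 of all 2852 models were called, 6.59%, against a background of 1.87% and 1.52% of numbered genes.

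Rows that passed the filter through 1 genotype alone were also counted apart, a split made after the data were seen. These rows are chosen by a difference between the genotypes. The choice therefore largely fixes the share called among them and lowers it among the rest, and the shares below are a description only. Of the 210 models that passed in this way 132 were called, 62.9%, against 193 of the 457 numbered genes, 42.2%. Among the other 1610 tested models 40 were called, 28 higher and 12 lower in HN44. That was 2.48%, against 2.65% of the other numbered genes and a background of 2.64% over all such rows. Without HN44-3 these 1610 models gave 4 calls, 0.248%, against 0.125% of the numbered genes and a background of 0.132%. Over all tested rows, in 7 classes of mean FPKM, the share called ran from 6.90% to 22.7% of models and from 2.68% to 7.67% of numbered genes. Without HN44-3 the classes gave 0.840% to 5.03% for models and 0.117% to 0.527% for numbered genes, with only 1 called model in the lowest class and 1 in the highest. Changes of at least 2-fold were seen in 15.3% of tested models and 9.24% of tested numbered genes. The difference between the classes of row was not itself tested, since models that overlap are not independent of each other. Summing the FPKM of overlapping models on 1 strand before the fit left 116 of 1415 places called, 8.20%, against 3.49% of all rows of that fit. Without HN44-3 it left 45 places, 3.18%, against 0.501% of all rows. Places that passed the filter through 1 genotype alone were included in both.

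**Figure D3:**
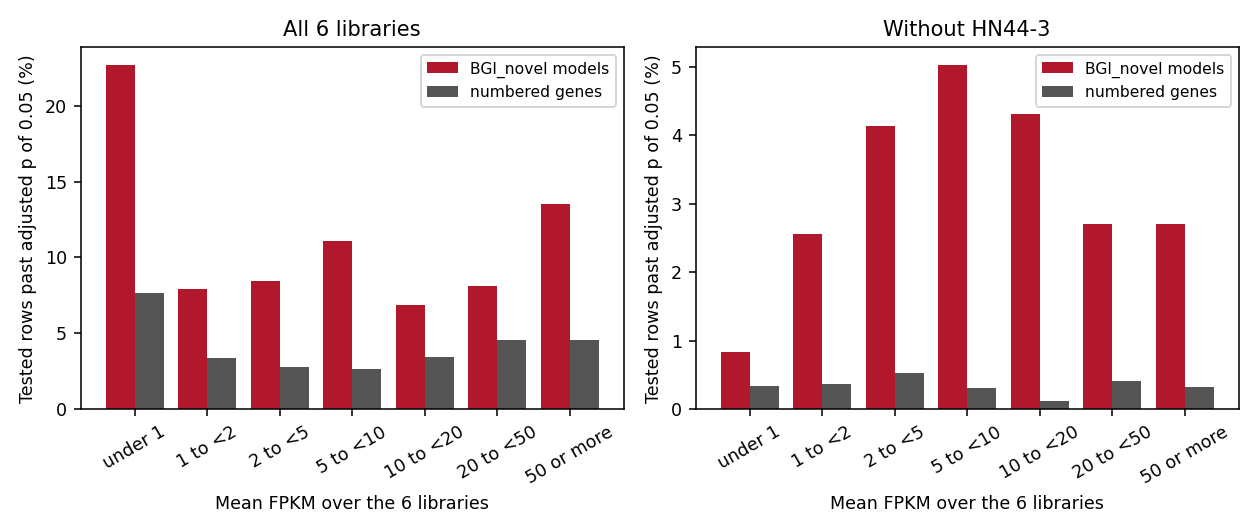
Bars give the percentage of tested rows past an adjusted p of 0.05 in limma for HN44 against SN14, by class of mean FPKM, for BGI_novel models (left bar) and numbered genes (right bar), with all 6 libraries and without HN44-3. The vertical axes differ between the panels. The share of models is above that of numbered genes in each class, at 6.90% to 22.7% against 2.68% to 7.67% with 6 libraries, and rows that passed the filter through 1 genotype alone are included.

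Groups that did not overlap, meaning that the lowest library of a genotype exceeded the highest of the other, were found for 564 of the 2852 models with HN44 higher and 338 with HN44 lower. These were 19.8% and 11.9% of the models, against a background of 17.6% and 9.90% over all rows. By this count, which uses no filter and no size of change, the models stood close to the background.

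Among the called models higher in HN44, the median fold change was 1.66 on the log2(FPKM + 1) scale, and 23 of 108 exceeded 8-fold. Among those lower in HN44 the median was -1.74, and 9 of 64 exceeded 8-fold. Fold changes on this scale understate the change of low rows. Most of the 10 models named by rule in each direction passed the filter through 1 genotype alone. Their adjusted p is therefore a description, since that choice favours a call. The exceptions were BGI_novel_G000001 and BGI_novel_G001736, higher in HN44, and BGI_novel_G001976 and BGI_novel_G002021, lower in HN44. The largest difference of any model was at chromosome 14, bases 7576270 to 7590214 on the plus strand, where BGI_novel_G001976 had 0, 1.24 and 0.73 FPKM in HN44 against 950.75, 832.83 and 669.09 FPKM in SN14. It was among the 8 most abundant models of the table while nearly absent in HN44. The log2 fold change was -9.01 (SE 0.32, limma adjusted p = 0.000133; 0.00253 without HN44-3, and 0.00619 when the filter was applied again). BGI_novel_G001977, which lies inside this span at bases 7587628 to 7588828 on the same strand, had 0.08, 0.53 and 0.07 FPKM in HN44 against 568.09, 544.61 and 52.08 FPKM in SN14. SN14-3 was far below the other SN14 libraries in this model but not in the longer one, and the 2 rows may share reads. The log2 fold change of this shorter model was -7.72 (SE 0.88, limma adjusted p = 0.00806; 0.0505 without HN44-3).

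The next largest difference among models lower in HN44 was BGI_novel_G000440 on chromosome 3, bases 41595226 to 41601014, minus strand. It had 0.05, 0.80 and 0.42 FPKM in HN44 against 33.23, 60.19 and 131.36 FPKM in SN14. The log2 fold change was -5.55 (SE 0.48, limma adjusted p = 0.00261). The limma adjusted p was 0.0217 without HN44-3 and 0.0588 when the filter was applied again. BGI_novel_G002407 on chromosome 17, bases 22283314 to 22283901, was listed at 0 in the 3 HN44 libraries and had 12.34, 12.03 and 18.52 FPKM in SN14 (limma adjusted p = 0.000329; 0.00661 without HN44-3). It overlapped no other row, and the nearest tested numbered gene, LOC100797746, was 369556 bases away. That gene had 7.41, 7.03 and 7.66 FPKM in HN44 and 6.41, 7.74 and 7.88 FPKM in SN14, and was not called (limma adjusted p = 0.978). BGI_novel_G001527 on chromosome 11, bases 4881545 to 4886337, stood at 0, 0.04 and 0 FPKM in HN44 against 7.19, 5.67 and 8.53 FPKM in SN14 (log2 fold change -2.99, SE 0.18, limma adjusted p = 0.000551; 0.00943 without HN44-3).

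The remaining named models lower in HN44 belong to groups of overlapping models. BGI_novel_G002021 on chromosome 14, bases 33490312 to 33501595, had 0.21, 1.39 and 0.17 FPKM in HN44 against 12.53, 20.65 and 26.57 FPKM in SN14. BGI_novel_G002400 on chromosome 17, bases 18205264 to 18208538, had 0, 0 and 0.27 FPKM in HN44 against 4.81, 9.65 and 15.17 FPKM in SN14. The rule for named models requires a call with 6 libraries and groups that do not overlap, so neither is a result here. Both models were also called without HN44-3 on the same rows. The limma adjusted p was 0.00462 and 0.00805 with 6 libraries, and 0.0328 and 0.0427 without HN44-3. Both calls were lost when the filter was applied again (limma adjusted p = 0.0744 and 0.0869). BGI_novel_G001224 on chromosome 9, bases 3579062 to 3587538, was listed at 0 in HN44 and had 7.58, 8.45 and 17.52 FPKM in SN14. Its limma adjusted p was 0.00244 with 6 libraries, 0.0221 without HN44-3 and 0.0588 when the filter was applied again. BGI_novel_G001222, an overlapping model on the same strand that ends at the same base, had 11.07, 9.26 and 9.86 FPKM in HN44 and 3.99, 5.98 and 0.42 FPKM in SN14, and was not called (limma adjusted p = 0.132). Among the 5 models of this place, BGI_novel_G001222 was the highest in each HN44 library and BGI_novel_G001224 in each SN14 library.

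Among models higher in HN44, the largest fold change was at chromosome 16, bases 26317085 to 26324392 on the minus strand, where 5 models share 1 span. The most abundant, BGI_novel_G002261, had 24.40, 26.84 and 24.69 FPKM in HN44 against 0, 0.14 and 0 FPKM in SN14. This was a log2 fold change of 4.65 (SE 0.15, limma adjusted p = 0.000107; 0.00298 without HN44-3). The other 4 models of the span were also called higher in HN44, with adjusted p of 0.000178 to 0.000546 in limma, and none exceeded 0.19 FPKM in an SN14 library. LOC100775552, a protein-coding gene that begins 259 bases beyond the span on the opposite strand, had 3.85, 2.74 and 2.83 FPKM in HN44 and 2.08, 1.82 and 1.30 FPKM in SN14, and was not called (limma adjusted p = 0.115).

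BGI_novel_G001736 on chromosome 12, bases 39183994 to 39186092 on the plus strand, was the most abundant of the 10 named models higher in HN44. It had 345.44, 633.99 and 478.38 FPKM in HN44 against 15.46, 18.67 and 58.15 FPKM in SN14. Its groups were separate, as the naming rule requires. The log2 fold change was 4.14 (SE 0.50, limma adjusted p = 0.00935), but the call was lost without HN44-3 (limma adjusted p = 0.0641). BGI_novel_G000094 and BGI_novel_G000095 share bases 45268780 to 45272158 of chromosome 1. BGI_novel_G000094 had 23.84, 23.03 and 23.68 FPKM in HN44 against 0.10, 0.64 and 0.43 FPKM in SN14. BGI_novel_G000095 had 22.48, 19.47 and 22.57 FPKM in HN44 against 0.12, 0 and 0.49 FPKM in SN14. Each was called with and without HN44-3 (limma adjusted p = 0.000221 and 0.000235 with 6 libraries; 0.00485 for each without it).

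Among the 10 named models higher in HN44, 3 were short models of undetermined strand. BGI_novel_G001385 on chromosome 10, 397 bases long, had 26.02, 9.02 and 19.99 FPKM in HN44 against 0, 0.22 and 0 FPKM in SN14. BGI_novel_G000065 on chromosome 1, 1011 bases long, had 15.90, 7.60 and 12.73 FPKM in HN44 against 0.06, 0.26 and 0 FPKM in SN14. Both were called with and without HN44-3 (limma adjusted p = 0.00295 and 0.00152; 0.0237 and 0.0155 without it). BGI_novel_G001749 on chromosome 13, 815 bases long, had 21.37, 8.68 and 13.16 FPKM in HN44 and was listed at 0 in SN14 (limma adjusted p = 0.00159; 0.0149 without HN44-3). In all 3 models HN44-1 was the highest library and HN44-2 the lowest of its genotype.

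Models expressed in a single genotype were counted as those with at least 1 FPKM in its 3 libraries and listed at 0 in the 3 libraries of the other. In HN44 there were 32 such models at 28 loci, 1.12% of all models, together with 22 numbered genes, against a background of 0.129% of all rows. In SN14 there were 22 at 21 loci, 0.771% of all models, together with 6 numbered genes, against a background of 0.0671%. An FPKM listed at 0 does not show absence, since the depth is unknown. How many of them were called is not read as a result, since the choice of models largely fixes it. The same holds for the adjusted p given for any single one of them. Their median spans were 4186.5 bases in HN44 and 4193.5 bases in SN14. The strand was undetermined in 7 of the 32 and 1 of the 22.

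Not all of these mark a place that is silent in the other genotype. Of the HN44 models 8 overlapped another row that averaged at least 1 FPKM in SN14, and of the SN14 models 12 overlapped one that averaged at least 1 FPKM in HN44. Models that overlapped no other row at all numbered 11 in HN44 and 4 in SN14 when places are taken on 1 strand. On chromosome 15, BGI_novel_G002184 and BGI_novel_G002186 overlap on the plus strand between bases 40490985 and 40496885. BGI_novel_G002184 had 7.62, 15.34 and 11.05 FPKM in HN44 and BGI_novel_G002186 had 6.88, 23.24 and 14.65 FPKM, and both were listed at 0 in SN14 (limma adjusted p = 0.000927 and 0.0048; 0.0116 and 0.0359 without HN44-3). BGI_novel_G002525 on chromosome 18, a strandless model of 323 bases, had 13.65, 4.53 and 10.67 FPKM in HN44 and was listed at 0 in SN14 (limma adjusted p = 0.00644; 0.0427 without HN44-3).

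Among the most abundant models listed at 0 in HN44, 3 have not yet been described. BGI_novel_G002532 on chromosome 18, bases 33995062 to 33995936, was listed at 0 in HN44 and had 2.93, 4.53 and 11.16 FPKM in SN14 (limma adjusted p = 0.019; 0.106 without HN44-3). BGI_novel_G002615 on chromosome 19, bases 9096313 to 9097160, was listed at 0 in HN44 and had 2.08, 4.56 and 11.24 FPKM in SN14 (limma adjusted p = 0.0358; 0.171 without HN44-3). BGI_novel_G002616, also on chromosome 19 at bases 9290535 to 9294905, was listed at 0 in HN44 and had 1.26, 9.10 and 5.85 FPKM in SN14, and was not called (limma adjusted p = 0.0528). Its neighbour LOC100794945, a protein-coding gene 6147 bases away, had 3.31, 3.70 and 2.51 FPKM in HN44 and 1.95, 28.91 and 29.94 FPKM in SN14. SN14-1 was low in both rows, and the neighbour's groups overlapped.

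At 5 places, models that overlap on 1 strand were called in opposite directions with 6 libraries, and at 0 places without HN44-3, by limma in each case. These places were picked by their calls and are a description. On chromosome 4, between bases 8369982 and 8377859 on the minus strand, BGI_novel_G000529 had 10.27, 11.82 and 12.12 FPKM in HN44 and was listed at 0 in SN14. BGI_novel_G000530, which begins at the same base, had 26.83, 24.05 and 25.31 FPKM in HN44 against 3.67, 1.95 and 1.34 FPKM in SN14. The longer BGI_novel_G000526 and BGI_novel_G000527 were listed at 0 in HN44 and had 1.39 to 3.88 and 2.09 to 5.37 FPKM in SN14. BGI_novel_G000528, the longest, was detected in both, with 3.51, 3.74 and 5.20 FPKM in HN44 and 2.51, 3.10 and 2.60 FPKM in SN14. The sum over the 5 models was 40.61, 39.61 and 42.63 FPKM in HN44 against 9.66, 11.83 and 11.63 FPKM in SN14.

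On chromosome 10, BGI_novel_G001359 and BGI_novel_G001360 start 1 base apart, at 2355482 and 2355483, and end at the same base on the plus strand. BGI_novel_G001359 had 2.92, 3.74 and 3.89 FPKM in HN44 against 0.82, 0.30 and 1.45 FPKM in SN14. BGI_novel_G001360 had 0.06, 0 and 0.06 FPKM in HN44 against 4.17, 5.84 and 18.41 FPKM in SN14, and the longer BGI_novel_G001361 had 0, 0.13 and 0 FPKM in HN44 against 6.10, 8.63 and 7.61 FPKM in SN14. Models with nearly the same ends therefore moved in opposite directions. Of the 3, BGI_novel_G001361 was called with and without HN44-3 (limma adjusted p = 0.000498 and 0.00866), and the others with 6 libraries alone (limma adjusted p = 0.0447 and 0.0207; 0.226 and 0.109 without HN44-3).

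At 3 further places the sums of the genotypes overlapped while single models crossed. On chromosome 7, between bases 5788531 and 5799574, BGI_novel_G000955 had 2.94, 2.77 and 3.22 FPKM in HN44 against 0.13, 0 and 0 FPKM in SN14, and BGI_novel_G000958 had 0.26, 0.17 and 0 FPKM in HN44 against 2.56, 2.51 and 4.10 FPKM in SN14. The sum over the 4 models there was 5.52, 4.94 and 5.28 FPKM in HN44 and 3.70, 4.04 and 6.28 FPKM in SN14, which overlapped. On chromosome 14, between bases 695223 and 702159, BGI_novel_G001927 had 1.57, 1.35 and 1.24 FPKM in HN44 and was listed at 0 in SN14, while BGI_novel_G001928 of the same span had 0, 0 and 0.40 FPKM in HN44 against 1.82, 2.52 and 4.56 FPKM in SN14. On chromosome 18, between bases 47232 and 49575, BGI_novel_G002457 had 12.80, 11.23 and 12.22 FPKM in HN44 against 3.84, 4.19 and 2.81 FPKM in SN14, and BGI_novel_G002456 had 1.01, 2.53 and 0 FPKM in HN44 against 7.24, 9.71 and 10.22 FPKM in SN14. The sum at that last place was 17.90, 16.35 and 16.90 FPKM in HN44 and 11.78, 13.90 and 19.37 FPKM in SN14. Whether such pairs are distinct transcripts or a division of the same reads was not tested.

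**Figure D4:**
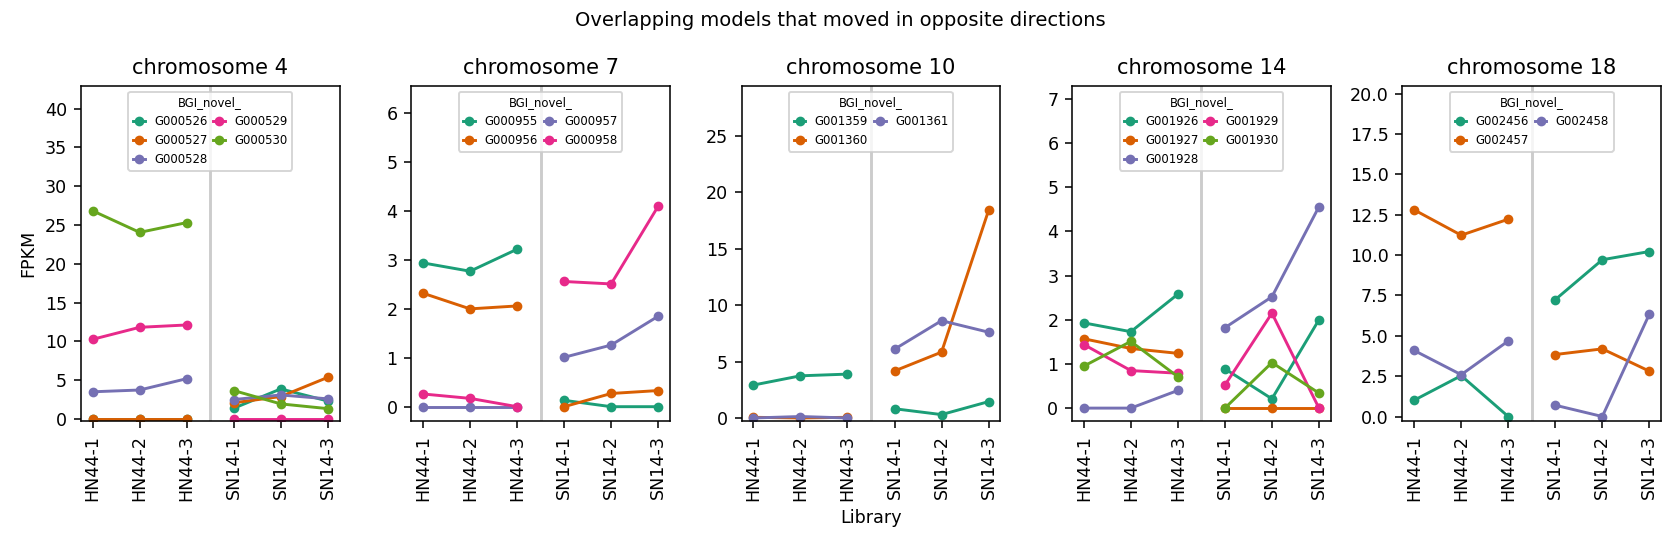
Each panel is 1 of the 5 places where overlapping BGI_novel models on 1 strand were called in opposite directions, and each colour is a model, with its FPKM in the 3 HN44 libraries (left) and the 3 SN14 libraries (right). Lines join libraries of a genotype only to guide the eye. On chromosome 4 the model at 24.05 to 26.83 FPKM in HN44 stood at 1.34 to 3.67 FPKM in SN14, while models listed at 0 in HN44 were present in SN14.

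Same-strand pairs of a model and the numbered gene it overlaps were compared where both members were tested. In the 62 such pairs the fold changes had the same sign in 37, with a Pearson correlation across pairs of 0.179 and a Spearman correlation of 0.285, and the model was the lower of the pair in 51. The model was called in 16 pairs and the numbered gene in 7. Pairs in which both members were called numbered 4, and 1 more involved a model of undetermined strand. Of these 5, 3 involved LOC100800776 on chromosome 3, which had 10.30, 9.74 and 8.96 FPKM in HN44 against 2.86, 2.06 and 2.07 FPKM in SN14. BGI_novel_G000391, which overlaps it over 21591 bases, had 3.42, 3.59 and 3.78 FPKM in HN44 and was listed at 0 in SN14 (limma adjusted p = 0.000744; 0.0121 without HN44-3). BGI_novel_G000389 and BGI_novel_G000390 at the same gene were also called higher in HN44, and the gene itself was called with and without HN44-3 (limma adjusted p = 0.0048 and 0.0453).

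The gene LOC100792404 on chromosome 15 had 15.69, 13.98 and 14.59 FPKM in HN44 against 2.26, 0.85 and 0.73 FPKM in SN14, and BGI_novel_G002196 on its strand had 2.32, 1.69 and 1.69 FPKM in HN44 and was listed at 0 in SN14. The pair on chromosome 18 went opposite ways. BGI_novel_G002578 was listed at 0 in HN44 and had 3.28, 2.94 and 1.73 FPKM in SN14 (limma adjusted p = 0.0076; 0.062 without HN44-3). LOC100787367, which it overlaps over 3124 bases on the same strand, had 2.10, 1.93 and 2.27 FPKM in HN44 against 0.05, 0.08 and 0.10 FPKM in SN14 (limma adjusted p = 0.00378; 0.0427 without HN44-3). The overlapping rows of these pairs may share reads, and the pairs were named after their calls were seen.

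The nearest tested numbered genes of called models were mostly not called. Among the 170 called models on a sequence with numbered genes, the nearest tested numbered gene was itself called for 10, 5.88%, and in the same direction for 6. Among 1627 tested models that were not called it was called for 52, 3.20%, and of all tested numbered genes 3.37% were called. The neighbour's fold change had the sign of the model in 85.0% of called models higher in HN44 and 27.0% of those lower. Among tested models that were not called this share was 56.7%. These shares stand beside a median fold change of 0.17 (log2) over all rows as deposited. Models that overlap can share a neighbour and are not independent. None of the models named by rule overlapped a numbered gene.

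Several of the most abundant models differed little or unevenly between the genotypes. BGI_novel_G002540 on chromosome 18, bases 43487854 to 43489014 on the plus strand, was the most abundant model over the 6 libraries. It had 1032.61, 786.75 and 1015.41 FPKM in HN44 against 340.79, 424.59 and 503.52 FPKM in SN14. The log2 fold change was 1.17 (SE 0.21, limma adjusted p = 0.037), but the call was lost without HN44-3 (adjusted p = 0.226) and after median-of-ratios scaling (adjusted p = 0.0722). BGI_novel_G000138 on chromosome 1, bases 55869679 to 55872202, was nearly constant, with 271.06, 294.80 and 262.60 FPKM in HN44 and 271.35, 268.43 and 264.94 FPKM in SN14 (limma adjusted p = 0.875). BGI_novel_G001541 and BGI_novel_G001542, neighbours on chromosome 11, varied more within a genotype than between them. BGI_novel_G001541 had 28.90, 465.89 and 200.81 FPKM in HN44 and 1005.50, 387.35 and 203.28 FPKM in SN14, and BGI_novel_G001542 had 27.98, 110.65 and 61.51 FPKM in HN44 and 970.56, 296.05 and 39.84 FPKM in SN14. Both were lowest in HN44 in HN44-1 and highest of all in SN14-1, and neither was called (limma adjusted p = 0.341 and 0.289).

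The organelle models behaved differently from the nuclear ones, and most followed SN14-3. Plastids and mitochondria carry small genomes of their own that are transcribed in long precursors, and many of their transcripts lack the poly(A) tails of nuclear messengers. All 13 mitochondrial models had their highest value in SN14-3, where they stood at a median of 2.56 times the highest other library among those with a value there. Their summed level was 61.85, 51.15 and 58.62 FPKM in HN44 and 57.05, 89.89 and 242.11 FPKM in SN14. Of the 7 tested, 0 were called in limma, and 0 were under an unadjusted p of 0.05. The most abundant mitochondrial model, BGI_novel_G002862, had 20.78, 15.84 and 18.45 FPKM in HN44 and 21.56, 34.72 and 100.88 FPKM in SN14.

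Among the 11 plastid models 8 were highest in SN14-3, and their sum was 645.30, 1103.15 and 791.56 FPKM in HN44 and 526.65, 850.42 and 2144.77 FPKM in SN14. The 3 longest spans of all models were plastid models that begin at base 1, BGI_novel_G000005 with 99068 bases, BGI_novel_G000004 with 98680 and BGI_novel_G000003 with 89567. BGI_novel_G000003, on the minus strand, had 83.03, 155.62 and 111.27 FPKM in HN44 and 84.96, 126.18 and 352.95 FPKM in SN14 (limma adjusted p = 0.584). BGI_novel_G000005, on the plus strand, had 3.25, 23.10 and 8.77 FPKM in HN44 against 34.49, 41.61 and 81.16 FPKM in SN14, without passing the threshold (limma adjusted p = 0.0855). The most abundant organelle model, BGI_novel_G000006, had 365.70, 590.69 and 434.66 FPKM in HN44 and 303.17, 332.87 and 633.52 FPKM in SN14, and its groups overlapped.

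BGI_novel_G000001, which spans bases 1 to 72831 of the plastid sequence on the plus strand, was lowest in SN14-3, where 8 of the 11 plastid models were highest. It had 61.85, 38.83 and 48.26 FPKM in HN44 against 4.04, 0.89 and 0.34 FPKM in SN14. The low BGI_novel_G000004, with 0.56, 0.50 and 0.39 FPKM in HN44 against 0.30, 0.07 and 0.17 FPKM in SN14, and BGI_novel_G000009, with 4.32, 7.02 and 5.76 FPKM in HN44 and 6.56, 5.11 and 5.04 FPKM in SN14, were not highest in SN14-3 either. For BGI_novel_G000001 the log2 fold change was 4.41 (SE 0.48, limma adjusted p = 0.00688; 0.0427 without HN44-3, and 0.0869 when the filter was applied again). It was the only organelle model called. BGI_novel_G000005 covers the whole of its span on the same strand, so their reads cannot be told apart. BGI_novel_G000005 went the other way, with 3.25, 23.10 and 8.77 FPKM in HN44 against 34.49, 41.61 and 81.16 FPKM in SN14. The fold change of BGI_novel_G000001 alone therefore does not describe the amount at this place. The sum of the pair was part of the fit on summed overlapping models, but its own result is not given here.

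**Figure D5:**
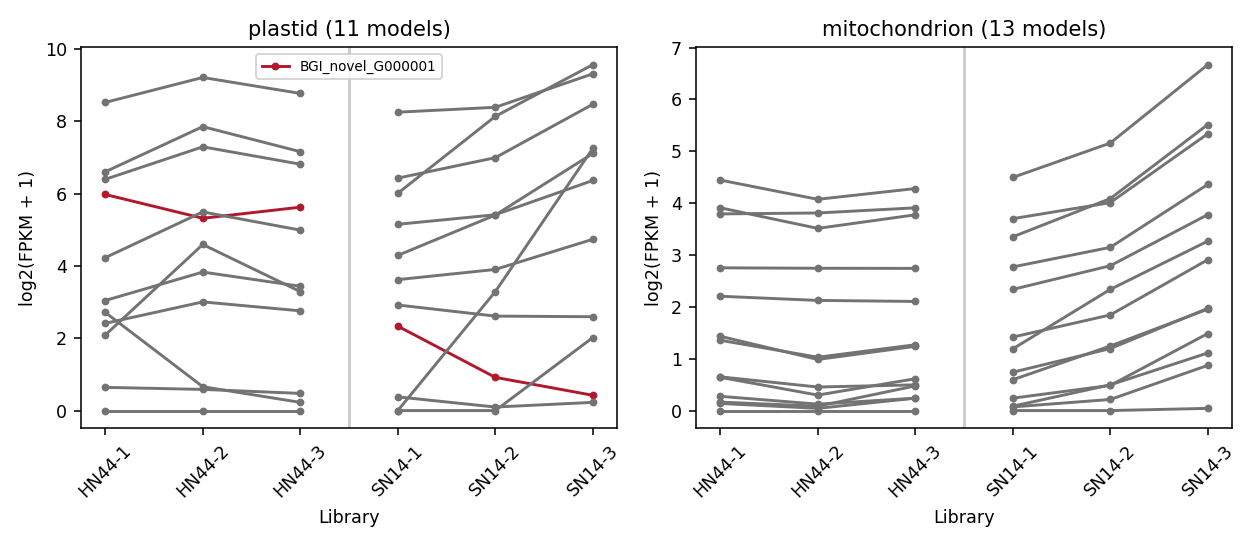
Points give log2(FPKM + 1) of each of the 11 plastid and 13 mitochondrial BGI_novel models in the 3 HN44 libraries (left) and the 3 SN14 libraries (right), with lines within a genotype to guide the eye. The mitochondrial models are all highest in SN14-3, and BGI_novel_G000001 is the plastid model at 38.83 to 61.85 FPKM in HN44 and 0.34 to 4.04 FPKM in SN14.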

How the data were processed

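The deposited values are FPKM per gene in 6 leaf libraries, made by the authors and given in 1 table with each row's position and strand, per the file headers. RNA was extracted with Trizol and sequenced by a BGI500 protocol, per the labels' protocols. RSEM 1.2.12, Bowtie2 2.2.5, DESeq2 1.4.5 and HISAT2 2.0.4 appear, per the submitters' processing notes, with no step attached. The genome build, the strandedness of counting and the way the BGI_novel models were built are not given in the sources used here. Reads from overlapping or antisense rows can therefore not be told apart. FPKM carries no read totals, so the depth and counting error of each value are unknown.

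The members and lists were chosen with earlier results of these data known. Spans were read from the table, and an overlap of 1 base was enough to count. Chromosome numbers and symbols came from a RefSeq table of Glycine_max_v4.0, which matched 37544 numbered genes, and no coordinate was taken from it. Levels were compared as log2(FPKM + 1) with limma 3.58.1 in R 4.3.3, with a variance trend, all 6 libraries and no covariate, on rows that reached 1 FPKM in 3 libraries or more. Fold changes are HN44 minus SN14 with their standard error (SE). The procedure was tested on simulated data.

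Named models are the 10 loci with the largest fitted change in each direction (adjusted p under 0.05, at least 2-fold, no overlap between genotypes, the higher genotype averaging 5 FPKM or more). They also include the 8 most abundant loci, the 5 most abundant loci of each genotype listed at 0 in the other, the 3 longest spans and the span with most rows. Others were named after their values were seen. Alternatives were another pseudocount, other filters, median-of-ratios and quantile scaling, a replicate block, each library left out, and identical spans summed. Summing overlapping models on 1 strand, and setting aside rows that passed the filter through 1 genotype alone, were added after the data were seen.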

Additional observations from a re-analysis of the deposited data

How the results depend on the processing

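With 6 libraries, 172 models at 157 loci were called in limma. A floor of 5 FPKM left 60 models and 54 loci, with fewer rows tested: 13.4% of tested models against 4.49% of all rows. Counting models that did not pass the filter through 1 genotype alone left 40 models and 39 loci, 2.48% of such models against 2.64% of all such rows. The other shares called in this section include rows that passed through 1 genotype alone. Leaving out 1 library gave 60 to 159 models and 54 to 144 loci, with fewest without HN44-3 (60 and 54), then without HN44-1 (80 and 74). Without HN44-3 and with the filter applied again, 4 models and 4 loci were left, 0.253% of tested models against 0.0571% of all rows. The remaining alternatives gave 116 to 188 models and 116 to 166 loci. Libraries of equal replicate number correlated in their deviations from the genotype means at -0.223, -0.436 and 0.0296. Those of unequal number ran from -0.167 to 0.431, the highest being HN44-1 with SN14-2. These values gave no sign of a pairing by number, and whether libraries shared a batch was not tested. A fit with the replicate number as a block called 58 models and 52 loci, 3.19% of tested models against 0.641% of all rows. The median difference between models and numbered genes was -0.76 to -0.681 with 1 library left out, where 5 libraries cannot give a p below 0.0625. The difference in the share of the FPKM total turned to -0.00677 percentage points without the 10 most abundant rows of the table; the cause was not tested.

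Among named models, calls were lost by 6 without HN44-3 on the same rows. With the filter applied again, 11 of those still tested lost the call and 15 kept their status. A change of sign occurred in named models far from the threshold. With 1 library left out, log2 fold changes ran from -0.015 (without SN14-1; -0.004 without HN44-2) to 0.515 for BGI_novel_G000006, from -0.008 to 0.075 for BGI_novel_G000138, from -1.645 to 0.133 for BGI_novel_G000011, from -0.897 to 0.123 for BGI_novel_G000003, from -0.096 to 0.25 for BGI_novel_G000814 and from -0.548 to 0.035 for BGI_novel_G000809. Median-of-ratios scaling gave -0.004 for BGI_novel_G000006, -0.148 for BGI_novel_G000138 and -0.078 for BGI_novel_G000814, and quantile scaling -0.092 for the last of these; the cause was not tested. The depth of the libraries is unknown, so how far it limits the low models was not tested.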

Other observations

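Models that share an exact span did not always move together. At 148 shared spans with at least 2 tested models, the fold changes had opposite signs at 47, 31.8%. The difference between the highest and the lowest fold change at a span had a median of 0.38 on the log2 scale and exceeded 1 at 19 spans. The most abundant model of a span held a median of 62.1% of its summed FPKM. Of the 39 such spans with a called model, 28 were also called when their models were summed before the fit.

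In the plastid, BGI_novel_G000012 had 5.56, 0.58 and 0.17 FPKM in HN44 and 0, 8.77 and 151.02 FPKM in SN14, and BGI_novel_G000011, which starts at the same base on the opposite strand, had 96.06, 229.61 and 141.71 FPKM in HN44 and 63.28, 279.61 and 755 FPKM in SN14. Both were highest in SN14-3, and neither was called (limma adjusted p = 0.401 and 0.61).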
